A study of Mus musculus with 14 samples.

Results

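Interferon-stimulated genes are the genes that cells switch on after an interferon binds its receptor, and 39 of them are described here across 10 bulk RNA-seq libraries of sorted mouse T cells. The members were taken by symbol: 39 of 39 symbols were found among the 50508 gene rows of each of the 2 count tables, and 39 of 39 passed the filter on low counts in each table. It was known when the genes were listed that Isg15 was higher in the library numbered 2 of each tumour group, so the pattern between those libraries is a description here and carries no test.

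The study compared killer innate-like T cells, called ILTCk, with conventional T cells. The thymic table held 2 libraries of CD8 single-positive thymocytes (CD8SP), the conventional lineage, and 2 libraries of the ILTCk progenitor (ILTCkP), both from mice whose model is given as C57BL/6. Progenitors were gated as CD1d tetramer-negative with absent or dull CD4 and CD8α, as far as the labels describe the sort. The tumour table held 2 libraries each of PD1+ conventional T cells (PD1+ Tconv) and of ILTCk without and with the surface receptor NK1.1 (NK1.1- ILTCk, NK1.1+ ILTCk; also called the NK1.1- group and the NK1.1+ group below), whose model is given as retrogenic, a term for mice rebuilt with marrow that carries a chosen receptor by retrovirus. Both tumour gates took CD45+ cells with TCRβ and CD8α and without TCRγδ and CD4, and within these NK1.1+ ILTCk were PD-1- NK1.1+ and PD1+ Tconv were PD-1+ NK1.1-. For the gate and the tissue of the NK1.1- group, which is called a tumour group here because it shares its table with the other two, the receptor carried, the tumour and the age of the mice, nothing is given in the sources used here. The design text calls the 2 libraries of a group biological replicates, and no interferon or infection is named for any group.

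Type I interferons act through the receptor chains IFNAR1 and IFNAR2, the kinases JAK1 and TYK2, and a complex that includes STAT2 and IRF9 and binds a DNA element called the ISRE, the interferon-stimulated response element. The induced proteins block virus entry, sense or degrade foreign RNA, modify other proteins with ISG15, and in the case of IRF7 amplify the interferon response itself. Interferon-γ acts through a separate receptor and a DNA element called GAS, and it shares some targets, among them the guanylate-binding proteins. In the thymus, late-stage thymocytes are known to carry a tonic interferon signature in the absence of infection.

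Promoter stretches are shown for some members of the thymic comparison, because many members have this element in common. The ISRE core was searched as GAAANNGAAA on both strands, in RefSeq windows (GRCm38.p6) from 250 bases before to 50 bases after each start, which were found for 32 of the 39 members. The core lay in a window of 17 of the 32 members (53.1%), against 1079 of 27025 genes with a window (3.993%). Below are 6 stretches from members that fell in ILTCkP and 3 from members that did not pass that test. Each is written 5′ to 3′ along the gene's own strand, and capitals mark every base of a core, which reads TTTC instead of GAAA where the core lies on the opposite strand.
Ifit1, chr19:34640770-34640828, plus strand: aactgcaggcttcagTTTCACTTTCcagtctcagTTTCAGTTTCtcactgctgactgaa
Ifit3, chr19:34583358-34583431, plus strand: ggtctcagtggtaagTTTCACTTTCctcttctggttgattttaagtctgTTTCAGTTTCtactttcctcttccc
Isg15, chr4:156200860-156200911, minus strand: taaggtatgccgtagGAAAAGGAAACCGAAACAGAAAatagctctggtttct
Rsad2, chr12:26456548-26456587, minus strand: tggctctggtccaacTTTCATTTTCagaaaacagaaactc
Trim30a, chr7:104465205-104465244, minus strand: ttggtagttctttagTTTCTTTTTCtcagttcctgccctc
Gbp7, chr3:142530268-142530307, plus strand: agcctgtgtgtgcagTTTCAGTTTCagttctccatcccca
Bst2, chr8:71537572-71537617, minus strand: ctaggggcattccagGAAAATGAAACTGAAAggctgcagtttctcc
Oas3, chr5:120777710-120777749, minus strand: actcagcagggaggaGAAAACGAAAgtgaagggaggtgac
Stat2, chr10:128270261-128270300, plus strand: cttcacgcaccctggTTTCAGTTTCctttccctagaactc

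Isg15 held 3 overlapping cores in an unbroken run that began 78 bases before the start. Ifit1 held 2 separate cores, the first of which began 104 bases before the start, and Ifit3 held 2, from 156 bases before it. Rsad2, Trim30a, Gbp7, Oas3 and Stat2 each held 1 core in the stretch shown, and Bst2 held 2 that overlap. The core was present in 8 of the 12 members with a window that fell in ILTCkP (66.7%) and in 9 of the 20 with a window that did not pass the test (45.0%). The GAS core, TTCNNNGAA, lay in 8 of 32 members and in 9.554% of genes with a window. A match describes the letters of the window and is not a measured binding site.

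Several members lie side by side in the genome. Ifit2, Ifit3 and Ifit1 span 99.3 kb of chromosome 19 (GRCm38, 34550694 to 34650009), Oas2, Oas3 and Oas1a span 177.2 kb of chromosome 5, and Gbp7, Gbp3 and Gbp2 span 107.7 kb of chromosome 3. Oasl1 and Oasl2 lie within 41.0 kb of each other on chromosome 5, and Rsad2 and Cmpk2 within 37.1 kb on chromosome 12. All 39 are annotated as protein-coding genes in GENCODE M21. Of the 50-base stretches of Oas1a exons 57.57% also occur in Oas1g, and 51.24% of those of Ifit3 in Ifit3b, so the counts of these 2 members depend on how shared reads were assigned and are uncertain. Gbp7 (12.74%), Herc6 (12.48%), Rtp4 (11.63%) and Ifitm3 (10.02%) shared less.

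Depth ran from 16530085 to 32097301 counts per library, and at least 0.19% and at most 0.766% of them fell on the members. Levels below are CPM, read counts scaled to library size with TMM factors within a table, and they are not compared across the 2 tables except as description. Cd8a fitted the labels in the thymus, where it fell from 1979 ± 194 CPM in CD8SP to 24.7 ± 14.3 in ILTCkP (SD, n = 2 each, edgeR adjusted p = 0.00626). Klrb1c, which encodes NK1.1, rose there from 0.524 ± 0.428 to 12.1 ± 4.12 (edgeR adjusted p = 0.0320). In the tumour table Klrb1c stood at 189 ± 170 CPM in the NK1.1+ group, 21.2 ± 12.4 in the NK1.1- group and 20.9 ± 26.3 in PD1+ Tconv (SD, n = 2 each). Markers of other cells were found in both tables. The 6 B cell markers summed to between 747.5 and 887 CPM in the thymic libraries and between 85.7 and 621 in the tumour libraries. The 12 myeloid markers summed to between 27.2 and 54.2 CPM in the thymic libraries, but to 3966 and 3715 CPM in the NK1.1- group, 9153 and 25180 in the NK1.1+ group, and 241 and 1463 in PD1+ Tconv, replicates 1 and 2 in that order. The 8 secretory gland markers were at 0 in the thymus and reached 38540 CPM in the NK1.1- group replicate 1 and 266500 CPM in PD1+ Tconv replicate 2.

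In the thymus the interferon-stimulated genes were lower in ILTCkP than in CD8SP, with at least 1 called member in each role. Of the 39 members, 17 fell and 0 rose at an adjusted p under 0.05 (edgeR quasi-likelihood test, Benjamini-Hochberg over 14634 genes), where 1.33% of all genes tested fell and 3.38% rose. The 2 ILTCkP libraries were both below both CD8SP libraries in 32 members (82.1%), against 29.3% of all genes, and above them in 1 member, Oas1a, against 28.8% of all genes. The median log2 fold change over the members was -1.48, beside 0.0068 over all genes tested. The summed level of the 39 was 4492 and 4292 CPM in CD8SP and 2321 and 1871 CPM in ILTCkP.

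**Figure D1:**
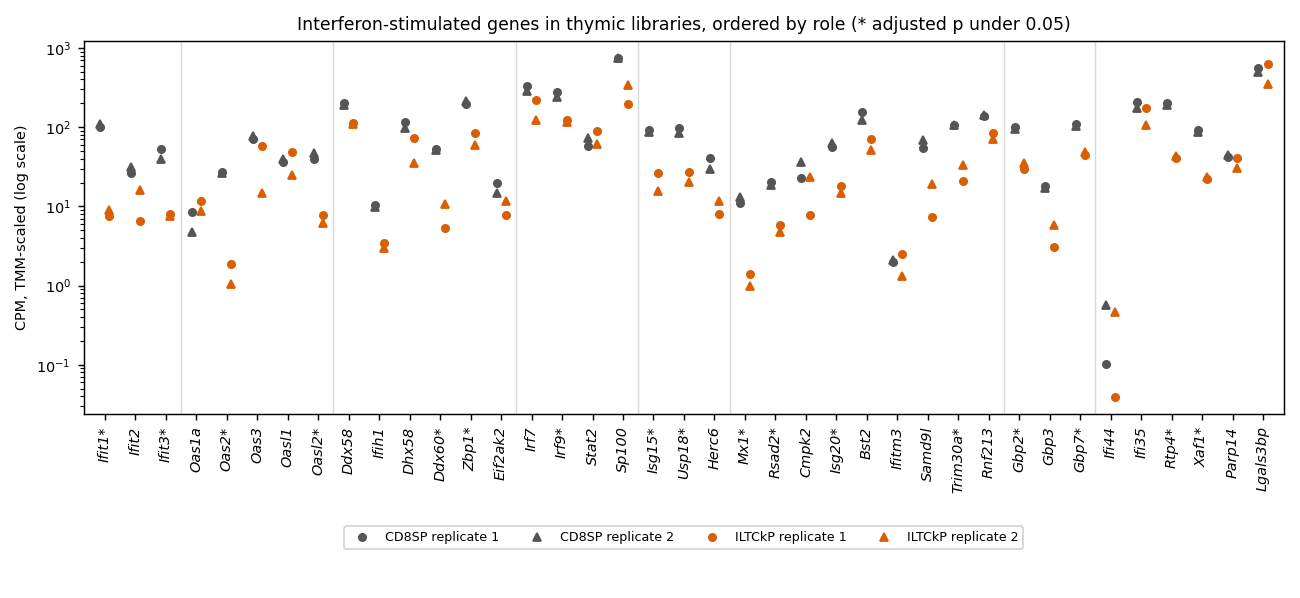
Level of each of the 39 members in the 4 thymic libraries (y axis, TMM-scaled CPM on a log scale; x axis, genes in role order with grey lines between roles; grey marks CD8SP, orange marks ILTCkP; circles are replicate 1 and triangles replicate 2; an asterisk marks an adjusted p under 0.05). In 32 genes both orange marks lie below both grey marks, and Oas1a is the only gene in which both lie above.

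The IFIT proteins grip the ends of foreign RNA and keep it from being translated. Ifit1 had 100.0 and 109.6 CPM in CD8SP and 7.45 and 9.04 CPM in ILTCkP. The 2 groups were far apart and each pair of libraries was close, and the log2 difference was -3.67 ± 0.28 (SE; adjusted p = 0.00577). Ifit3 had 52.9 and 39.6 CPM in CD8SP against 8.04 and 7.54 in ILTCkP, a log2 difference of -2.57 ± 0.33 (adjusted p = 0.0150). Ifit2 stood at 26.2 and 31.0 CPM against 6.50 and 16.1. Its libraries did not overlap either, but the spread between the 2 progenitor libraries was wide and the adjusted p was 0.192.

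Among the members of the OAS family, known for sensing double-stranded RNA, the differences diverged. Oas2 fell the most of all 39 on the log2 scale, from 27.2 and 26.5 CPM to 1.85 and 1.04 CPM (-4.22 ± 0.45, adjusted p = 0.0102). Oasl2, a relative that also carries ubiquitin-like domains, fell from 39.9 and 47.1 CPM to 7.88 and 6.25 (-2.62 ± 0.33, adjusted p = 0.0142). Its neighbour Oasl1 had 36.5 and 39.3 CPM in CD8SP and 49.0 and 25.2 in ILTCkP, so the groups overlapped (log2 difference -0.03 ± 0.38). Oas1a had 8.41 and 4.71 CPM against 11.7 and 8.64 (0.63 ± 0.45, adjusted p = 0.457). Oas3 had 70.7 and 76.2 CPM against 57.3 and 14.8, with the ILTCkP libraries far from each other (adjusted p = 0.373).

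All 6 sensors of RNA and other nucleic acids had a negative difference, and 2 of them passed the test. Ddx60, a helicase that promotes RNA sensing by RIG-I, had 53.4 and 51.7 CPM in CD8SP and 5.32 and 10.6 in ILTCkP (-2.72 ± 0.42, adjusted p = 0.0272). Zbp1, which senses Z-form nucleic acids and can start necroptosis, had 196 and 216 CPM against 85.5 and 59.3 (-1.51 ± 0.26, adjusted p = 0.0374). The RNA receptors themselves did not pass. Ddx58, which encodes RIG-I, had 202 and 191 CPM against 114 and 111, and Ifih1, which encodes MDA5, had 10.3 and 9.87 CPM against 3.43 and 2.94, with adjusted p-values of 0.0898 and 0.0793.

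Of the 4 members that act in the nucleus on transcription, 1 passed the test. Irf9, the DNA-binding part of the type I complex, fell from 274 and 243 CPM to 123 and 117 (-1.11 ± 0.21, adjusted p = 0.0441), the smallest called change of the 17. Stat2, its partner, had 57.1 and 72.5 CPM in CD8SP and 88.8 and 60.9 in ILTCkP, so the groups overlapped (0.21 ± 0.29, adjusted p = 0.716). Irf7 had 333 and 285 CPM against 220 and 124 (-0.85 ± 0.32, adjusted p = 0.201). Its 2 groups did not overlap, though the ILTCkP libraries were far from each other. Sp100, a nuclear body protein, had 747 and 753 CPM against 196 and 341 (-1.48 ± 0.31, adjusted p = 0.0591).

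ISG15 is a ubiquitin-like tag, USP18 removes it and also damps the receptor, and HERC6 is the mouse ligase that attaches it. Isg15 had 92.0 and 87.5 CPM in CD8SP and 26.3 and 15.8 in ILTCkP (-2.10 ± 0.33, adjusted p = 0.0295). Usp18 had 97.6 and 84.6 CPM against 27.0 and 20.0 (-1.95 ± 0.29, adjusted p = 0.0218). Herc6 was at 40.4 and 29.7 CPM against 7.96 and 11.6, just short of the threshold (adjusted p = 0.0511). In each of these 3 genes the groups were separated.

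Of the 9 other antiviral effectors 4 fell and 9 had a negative difference. Mx1, a dynamin-like GTPase that traps incoming viruses, had 11.1 and 13.2 CPM in CD8SP and 1.38 and 0.98 in ILTCkP (-3.36 ± 0.45, adjusted p = 0.0171). Isg20, an exonuclease, had 55.8 and 62.4 CPM against 18.3 and 14.6 (-1.85 ± 0.29, adjusted p = 0.0274). Trim30a, a ubiquitin ligase of the TRIM family, had 106.1 and 106.1 CPM against 20.8 and 33.4 (-1.97 ± 0.31, adjusted p = 0.0293). The fourth was Rsad2, which encodes viperin. Bst2, the tetherin that holds budding virus at the membrane, had 154 and 124 CPM against 71.8 and 51.7 (-1.17 ± 0.27, adjusted p = 0.0771). Ifitm3, which blocks virus fusion in endosomes, was close to the bottom of the range in every thymic library, at 2.00 and 2.09 CPM against 2.52 and 1.32 (-0.09 ± 0.61, adjusted p = 0.941).

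Of the 3 guanylate-binding proteins, GTPases that attack the membranes around microbes, 2 fell. Gbp2 had 102 and 94.8 CPM in CD8SP and 29.8 and 35.3 in ILTCkP (-1.59 ± 0.25, adjusted p = 0.0264), and Gbp7 had 109 and 105 CPM against 44.0 and 48.7 (-1.21 ± 0.23, adjusted p = 0.0453). Gbp3 had 18.0 and 16.9 CPM against 3.07 and 5.88 (adjusted p = 0.0730). Among the remaining members, Rtp4, a chaperone of receptors that interferon induces, had 203 and 193 CPM against 40.8 and 43.2 (-2.24 ± 0.22, adjusted p = 0.00831). Xaf1, a pro-apoptotic antagonist of XIAP, had 90.8 and 86.5 CPM against 22.0 and 23.2 (-1.97 ± 0.25, adjusted p = 0.0151). Lgals3bp, a secreted glycoprotein, overlapped between the groups (554 and 493 against 622 and 348 CPM), and Ifi44 was nearly absent, at 0.103 and 0.570 CPM in CD8SP and 0.0394 and 0.460 in ILTCkP.

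The 22 members that did not pass ranged from -2.22 to 0.63 on the log2 scale, and 8 of them had an adjusted p under 0.1. With DESeq2, 24 members were lower, where 4.26% of all genes were. Leaving out CD8SP replicate 1 left 10 calls and lost Gbp2, Gbp7, Irf9, Isg20, Rsad2, Usp18, Xaf1 and Zbp1; leaving out CD8SP replicate 2 left 11 and lost Gbp2, Gbp7, Irf9, Isg20, Rsad2 and Zbp1. In these 2 fits 174 of 15777 and 150 of 15677 genes were called lower. Without ILTCkP replicate 1 there were 31 calls and without ILTCkP replicate 2 there were 30, but the share of all genes called lower was then 7.58% and 22.3%, so the member counts rose along with calls over all genes. The 9 members called under every setting and without each library were Ddx60, Ifit1, Ifit3, Isg15, Mx1, Oas2, Oasl2, Rtp4 and Trim30a.

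The rest of the pathway, from lists of genes around the members, moved in part. Of the 10 interferon genes listed, 9 had 0 counts in all 4 thymic libraries, which allows up to 3 counts in the table's total, or 0.0254 CPM (counting error only). Ifng, the type II interferon, had 32 to 37 counts per library in both groups. None of the 5 receptor chains tested passed the test. Of these chains 2 had a negative difference and 3 a positive one. Ifnar1 had 165 ± 9.45 CPM in CD8SP and 172 ± 6.73 in ILTCkP (SD, n = 2 each). Ifnar2 had 117 and 118 CPM in CD8SP against 55.7 and 118 in ILTCkP. Ifngr2 had 40.1 and 55.6 CPM against 7.65 and 21.6, and Ifngr1 had 167 and 140 CPM against 217 and 261. Among the kinases and transducers listed, Irf5, a factor downstream of Toll-like receptors, rose from 1.84 ± 0.355 to 30.1 ± 8.96 CPM (4.03 ± 0.43 log2, adjusted p = 0.0102) and Irf8 rose from 19.9 ± 0.454 to 57.9 ± 0.399 CPM (1.54 ± 0.27 log2, adjusted p = 0.0353). Among the 9 upstream sensors and adaptors tested, Tlr7, an endosomal RNA receptor, fell from 13.9 ± 0.350 to 0.976 ± 0.266 CPM (-3.82 ± 0.45 log2, adjusted p = 0.0121). None of 6 feedback inhibitors passed.

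Interferon targets outside the 39 members were mostly lower in ILTCkP. Of 37 further interferon-induced genes tested, 28 had a negative difference and 9 a positive one. At an edgeR adjusted p under 0.05, 5 fell and 1 rose, where 1.33% of all genes tested fell and 3.38% rose. Ifit1bl1, an Ifit1 relative, fell from 34.0 ± 2.97 to 1.38 ± 0.610 CPM (-4.61 ± 0.46 log2, adjusted p = 0.00911), Ms4a4c from 37.8 ± 3.13 to 1.31 ± 0.743 CPM, Ifi27l2a from 286 ± 59.2 to 48.8 ± 11.5 CPM, and Ifi213 from 70.3 ± 1.60 to 6.96 ± 3.55 CPM. Slfn8 was the fifth. The 1 that rose was Tdrd7. Of 15 interferon-γ-induced GTPases and chemokines tested, 14 had a negative difference and 1 a positive one. By the same test 8 fell and 0 rose, beside the same shares of all genes. The 8 included Tgtp1, from 44.6 ± 0.578 to 3.15 ± 1.05 CPM, and the autophagy-linked GTPase Igtp, from 304 ± 0.402 to 93.8 ± 5.04 CPM (-1.69 ± 0.21 log2, edgeR adjusted p = 0.0133). The list medians were -0.65 and -1.53, beside 0.0068 over all genes.

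Markers of other cells and stages are given beside this difference. The 10 T cell markers summed to 11900 and 10820 CPM in CD8SP and 8958 and 8413 in ILTCkP. The 12 myeloid markers summed to 29.7 and 27.2 CPM against 54.2 and 39.3, with Mrc1 at 0 in all 4 libraries. The 6 double-positive thymocyte markers summed to 146 and 113 CPM against 95.9 and 131, and of these Rag1 fell, from 5.96 ± 1.22 to 0.514 ± 0.226 CPM (adjusted p = 0.0343). Their part in the difference was not tested, and in bulk samples fewer cells of a type and less RNA per cell cannot be told apart.

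**Figure D2:**
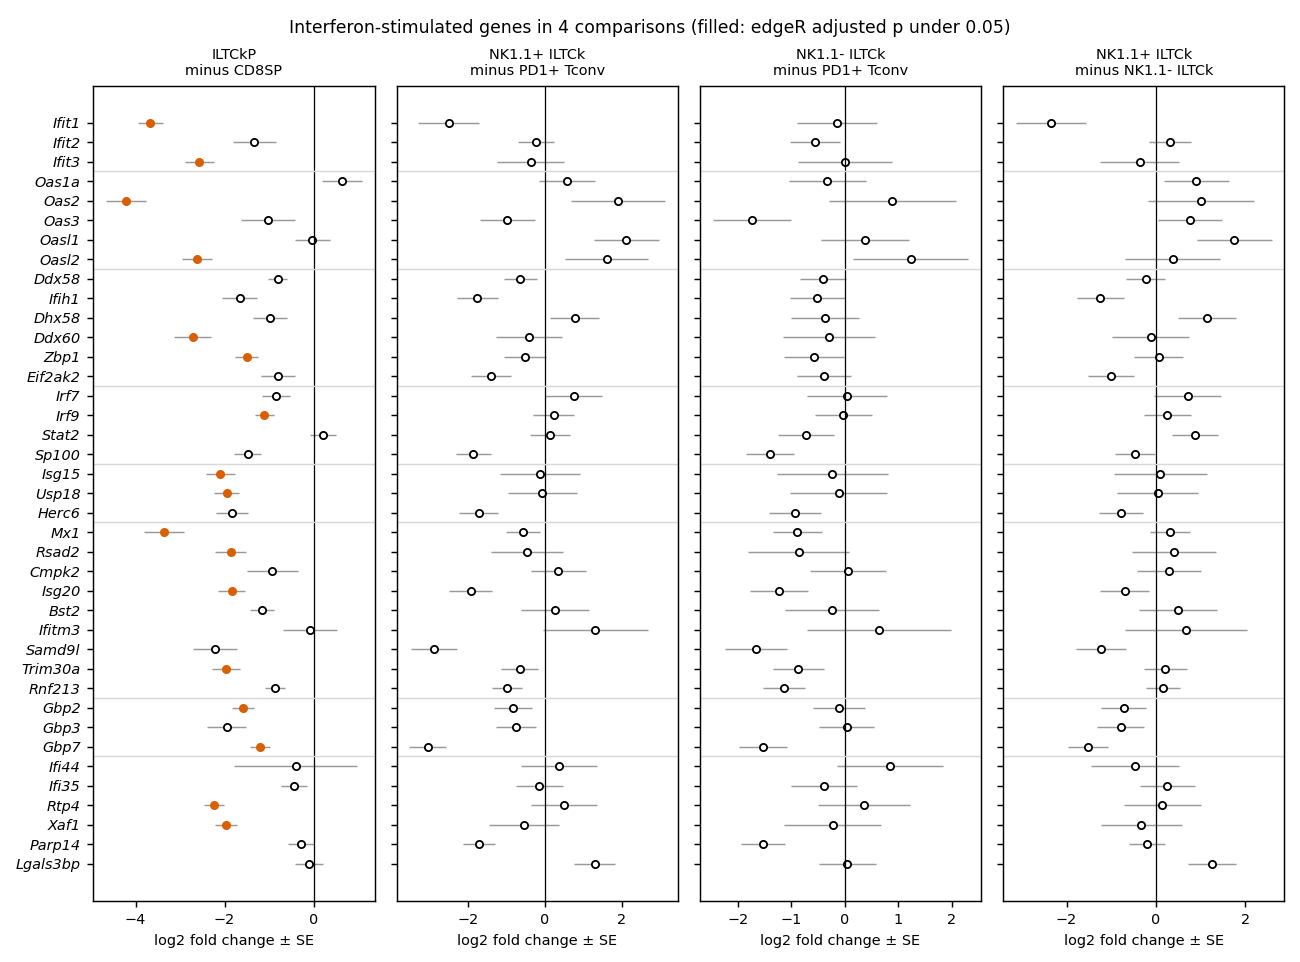
Log2 fold change ± SE (x axis) of each member (y axis, role order) in the 4 comparisons, 1 per panel; filled orange points have an edgeR adjusted p under 0.05 and open points do not. The 17 filled points are all in the thymic panel and to the left of 0. The 3 tumour panels have no filled point and wider error bars, and each shares libraries with the others.

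In the tumour table the members differed along the replicate number, in all 3 groups. The library numbered 2 was higher than the library numbered 1 in 39 of 39 members in the NK1.1- group, 31 of 39 in the NK1.1+ group and 32 of 39 in PD1+ Tconv, with median log2 ratios of 1.18, 1.30 and 0.65. Over all 18091 genes tested, between 49.14% and 49.39% were higher in the library numbered 2, with medians between -0.014 and -0.0035. The member was higher in the library numbered 2 of all 3 groups in 28 of 39 cases, where 20.0% of all genes were, and lower in all 3 in 0 cases, where 20.3% were. Scaled by the library total in place of TMM, 19 of 39 members were higher in all 3, against 9.28% of all genes. By group, 38 were then higher in the NK1.1- group, 29 in the NK1.1+ group and 20 in PD1+ Tconv. The member medians were 0.905, 0.947 and 0.073 in that order, beside medians of all genes of -0.26, -0.31 and -0.49. In the thymus 17 of 39 members were higher in the CD8SP library numbered 2, where 49.19% of all genes were. In ILTCkP 15 of 39 were higher in the library numbered 2, where 52.1% of all genes were. The median log2 ratios of the members were -0.063 in CD8SP and -0.25 in ILTCkP, beside 0 and 0.043 over all genes.

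**Figure D3:**
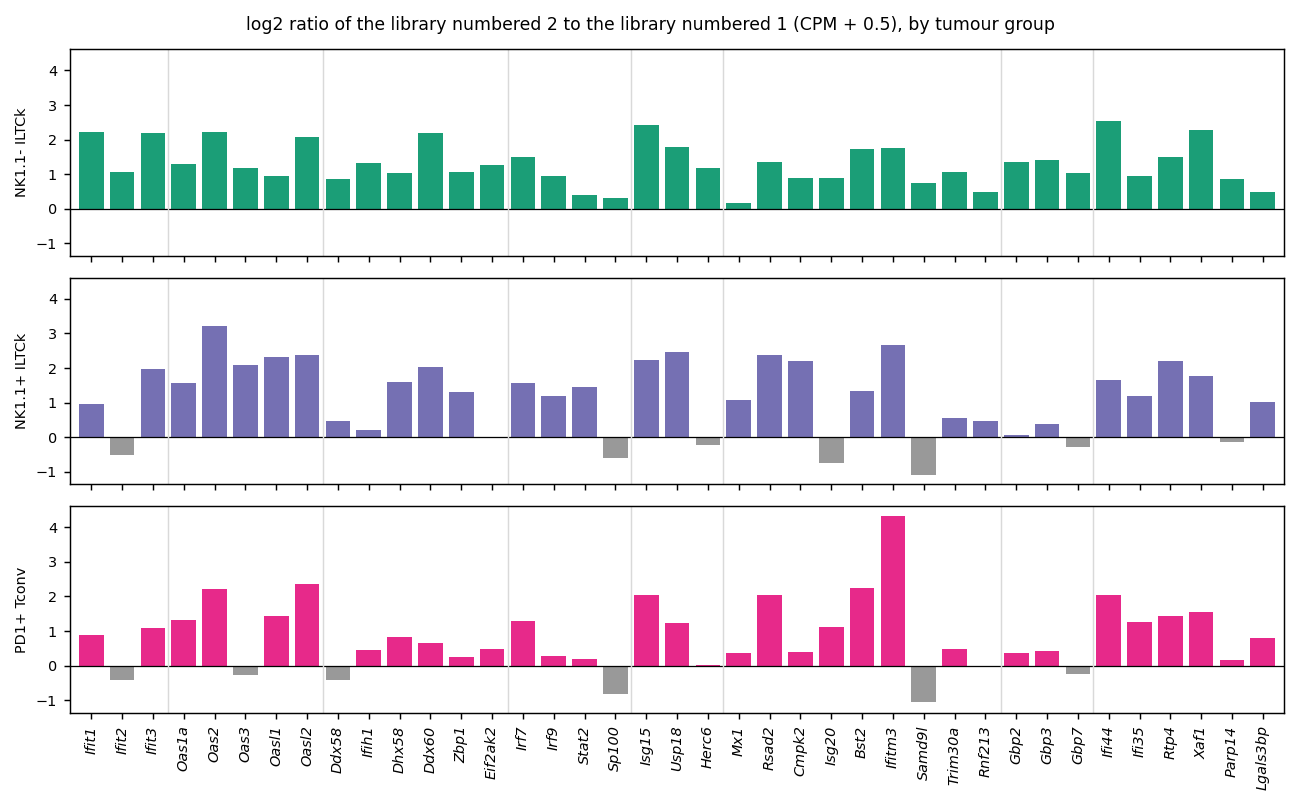
Log2 ratio of the library numbered 2 to the library numbered 1 (y axis; CPM with 0.5 added) for each member (x axis, role order) in each tumour group, with coloured bars where the ratio is positive and grey bars where it is negative. All 39 bars are positive in the NK1.1- group, 31 in the NK1.1+ group and 32 in PD1+ Tconv. Grey bars recur at Ifit2, Sp100, Samd9l and Gbp7 in the lower 2 panels.

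Isg15 had 25.7 and 140 CPM in the NK1.1- group, 30.8 and 146 in the NK1.1+ group, and 37.9 and 156 in PD1+ Tconv. The 3 groups therefore nearly coincided library by library, and the values under number 1 did not overlap those under number 2. Irf7, the amplifier of the response, had 126 and 359 CPM, 198 and 593 CPM, and 137 and 334 CPM in the same order. Ifit3 had 47.5 and 220 CPM, 41.4 and 166 CPM, and 85.3 and 182 CPM. Bst2 had 72.7 and 244 CPM, 125 and 320 CPM, and 64.1 and 307 CPM. Each of these 4 genes was higher in all 3 libraries numbered 2 than in any library numbered 1.

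Ifitm3 had the widest single ratio, that in PD1+ Tconv, and stood at 395 and 1341 CPM in the NK1.1- group, 375 and 2392 in the NK1.1+ group, and 52.1 and 1060 in PD1+ Tconv. Per kilobase of exon it was the highest of the 39 members in each tumour group, at 1280 ± 986, 2040 ± 2104 and 820 ± 1051 CPM per kb in that order (SD, n = 2 each), with an SD near or above the mean. In the thymus Lgals3bp led in both groups, at 184 ± 15.2 and 170 ± 68.0 CPM per kb in CD8SP and ILTCkP. Among the OAS members, Oas2 had 15.1 and 72.4 CPM in the NK1.1- group, 16.9 and 160 in the NK1.1+ group, and 8.06 and 39.2 in PD1+ Tconv, and Oasl2 had 56.4 and 238, 60.8 and 320, and 19.9 and 105 CPM.

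By role, it held in all 3 groups for 4 of 5 OAS members, 2 of 3 IFIT members, 4 of 6 sensors, 3 of 4 transcription factors, 2 of 3 members of the ISG15 system, 6 of 9 other effectors, 2 of 3 guanylate-binding proteins and 5 of the 6 remaining members. The 11 exceptions were Ifit2, Oas3, Ddx58, Eif2ak2, Sp100, Herc6, Isg20, Samd9l, Rnf213, Gbp7 and Parp14. Samd9l, a restriction factor of poxviruses, went the other way in 2 groups, at 18.5 and 8.44 CPM in the NK1.1+ group and 134 and 64.9 in PD1+ Tconv, while in the NK1.1- group it had 23.6 and 39.6 CPM. The members higher in all 3 libraries numbered 2 were 15 of the 17 that fell in the thymic ILTCkP (88.2%) and 13 of the 22 that did not (59.1%). An ISRE core lay in the window of 13 of the 22 of them with a promoter (59.1%) and of 4 of the 10 exceptions with one (40.0%).

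**Figure D4:**
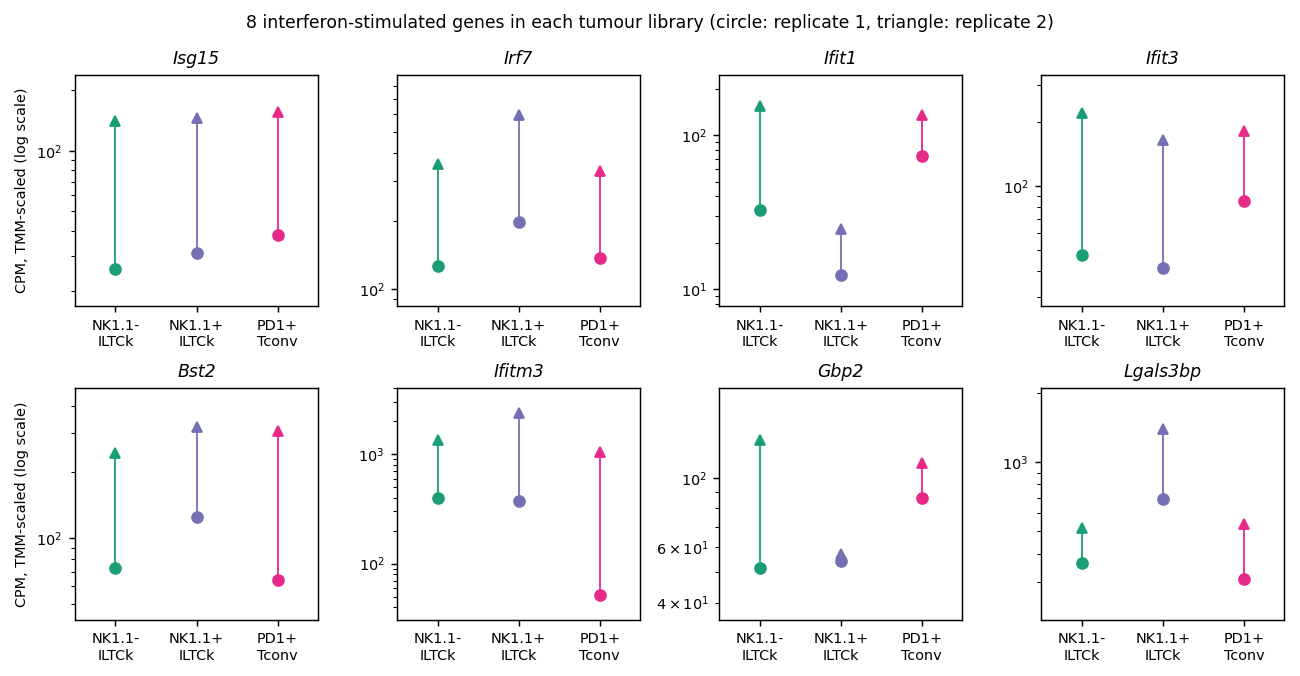
Level of 8 members in the 6 tumour libraries (y axis, TMM-scaled CPM on a log scale, own range in each panel; x axis, group; circles are replicate 1, triangles replicate 2, joined by a line within a group). The triangle lies above the circle in every group of every panel. In Isg15 the 3 lines cover nearly the same range, whereas in Ifit1 the NK1.1+ ILTCk line lies below the others.

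Other transcripts also differed between the libraries numbered 1 and 2. The share to read each count against is the 20.0% and 20.3% of all genes given above. Beyond the members, 20 of 40 further interferon-induced genes were higher in the library numbered 2 of all 3 groups and 1 was lower in all 3, but of 18 interferon-γ-induced GTPases and chemokines 5 were higher and 5 lower, near those shares. T cell markers were lower in all 3 in 7 of 10 cases and higher in 0, with sums of 1962 and 1394 CPM in the NK1.1- group, 3667 and 777 in the NK1.1+ group, and 6210 and 4400 in PD1+ Tconv. B cell markers were lower in all 3 in 6 of 6 cases. Myeloid markers were higher in all 3 in 3 of 12 cases, near the share of all genes, and lower in 0, and their sum was higher in the library numbered 2 of PD1+ Tconv and of the NK1.1+ group. In NK1.1- ILTCk the myeloid sum was 3966 CPM in replicate 1 and 3715 in replicate 2. The markers of plasmacytoid dendritic cells, a main source of type I interferon, summed to 116 and 912, 240 and 193, and 138 and 614 CPM in the same group order, a sum that includes Klk1, also a gland gene, at 367 ± 516 CPM in the NK1.1- group and 235 ± 324 in PD1+ Tconv. The defining marker of that list, Siglech, averaged at most 2.37 CPM in a tumour group. Without PD1+ Tconv, 31 of 39 members were higher in both ILTCk libraries numbered 2, where 27.8% of all genes were. The gland markers of the NK1.1- group, which stayed in that count, summed to 38540 CPM in replicate 1 and 2003 in replicate 2. In PD1+ Tconv they summed to 1311 and 266500 CPM. The part of these other cells in the difference was not tested, and whether the numbers mark a mouse, a day or another unit is not stated in the labels.

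**Figure D5:**
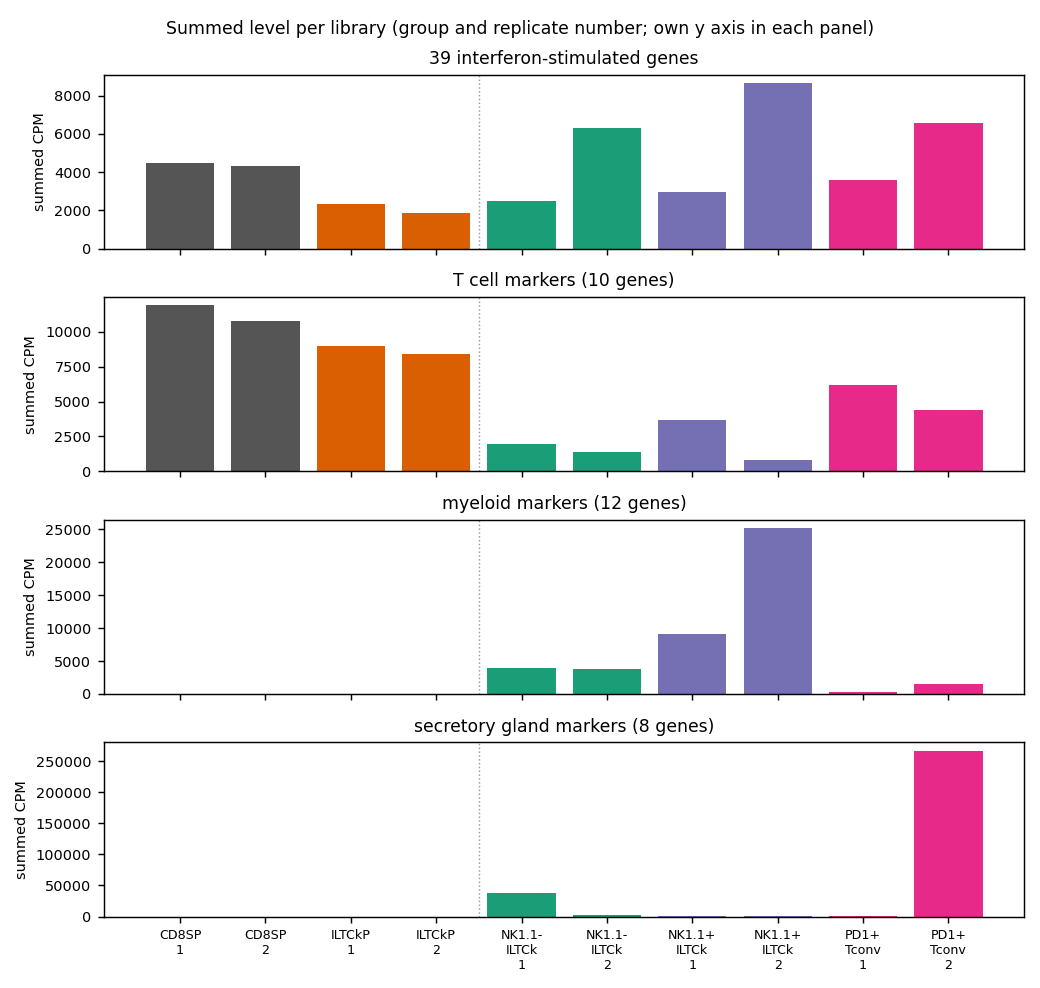
Summed CPM per library (y axis, linear from 0, own scale in each panel) of the 39 members and of 3 marker lists, for the 10 libraries in group and replicate order (x axis; the dotted line divides the thymic from the tumour table, which were scaled separately). The member sum is 6281, 8663 and 6545 CPM in the tumour libraries numbered 2 against 2464, 2973 and 3577 in those numbered 1. The gland sum is concentrated in PD1+ Tconv replicate 2 and the myeloid sum in the NK1.1+ group.

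Between the tumour groups edgeR called 0 members and 0 of 18091 genes in any comparison (0% called at an adjusted p under 0.05 in each of the 3), so every tumour value below is a measured difference that did not pass that test. With the replicate number added as a block the same tool called members in 1 of the 3 comparisons, given there. The comparisons with PD1+ Tconv share its 2 libraries, and all 3 draw on 1 estimate of spread. The summed level of the members was 4372 ± 2699 CPM in the NK1.1- group, 5818 ± 4024 in the NK1.1+ group and 5061 ± 2098 in PD1+ Tconv (SD, n = 2 each), so the groups overlapped.

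For NK1.1+ ILTCk against PD1+ Tconv, 10 members were lower and 2 higher at an unadjusted p under 0.05, where 7.34% of all genes were lower and 6.98% higher. The libraries did not overlap in 15 members that were lower and 1, Lgals3bp, that was higher, where 20.8% and 20.7% of all genes were. The median log2 difference over the 39 was -0.41, beside -0.035 over all genes. DESeq2 called 7 members lower (Gbp7, Samd9l, Sp100, Parp14, Ifit1, Isg20 and Herc6) and 0 higher, where it called 3.08% of all genes lower and 3.53% higher. With the replicate block, edgeR called Gbp7, Ifit1, Samd9l, Sp100 and Parp14 lower (adjusted p from 0.0105 to 0.0420) and 2 members higher, where it called 1.79% of all genes lower and 2.39% higher. The higher pair was Oasl1, with 36.4 and 184 CPM in the NK1.1+ group and 13.5 and 37.2 in PD1+ Tconv (1.92 ± 0.43 with the block, edgeR adjusted p = 0.0397), and Oasl2 (1.61 ± 0.35 with the block, edgeR adjusted p = 0.0349). In both genes the groups overlapped across numbers and the NK1.1+ group was higher within each number. Gbp7 had 20.4 and 16.7 CPM in the NK1.1+ group and 166 and 141 in PD1+ Tconv, a log2 difference of -3.05 ± 0.48 (edgeR adjusted p = 0.0875; DESeq2 adjusted p = 1.96e-06). Samd9l, given above, differed by -2.89 ± 0.60 (edgeR adjusted p = 0.129; DESeq2 adjusted p = 0.000394).

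Parp14, an ADP-ribosyltransferase, had 45.2 and 41.2 CPM in the NK1.1+ group against 134 and 151 in PD1+ Tconv (-1.72 ± 0.42, edgeR adjusted p = 0.172). Sp100 had 97.3 and 63.9 CPM against 374 and 210 (-1.86 ± 0.46, edgeR adjusted p = 0.176). Ifit1 had 12.3 and 24.6 CPM against 73.0 and 136 (-2.50 ± 0.79, edgeR adjusted p = 0.250). In these genes the 2 groups were separate. In the next 5 genes the groups overlapped: the difference was -0.14 ± 1.04 for Isg15, 0.75 ± 0.75 for Irf7, -0.37 ± 0.88 for Ifit3, 0.26 ± 0.88 for Bst2 and 1.31 ± 1.37 for Ifitm3. Gbp2 had 54.3 and 57.0 CPM against 86.3 and 112 (-0.83 ± 0.50). Lgals3bp had 694 and 1398 CPM against 311 and 540 (1.30 ± 0.54, edgeR adjusted p = 0.341), and 0.72 with the NK1.1+ library numbered 2 left out. Leaving out replicate 1 of the NK1.1+ group, or replicate 2 of PD1+ Tconv, turned the median of the 39 to 0.29 and 0.22.

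Markers of other cells and of T cells also differed between these groups. The 12 myeloid markers summed to 9153 and 25180 CPM in the NK1.1+ group and to 241 and 1463 in PD1+ Tconv. The 10 T cell markers summed to 3667 and 777 CPM against 6210 and 4400. Of the further pathway genes, Ifng had 8.27 and 5.73 CPM in the NK1.1+ group and 76.3 and 62.6 in PD1+ Tconv (-3.31 ± 0.44, edgeR adjusted p = 0.0779). The part of the myeloid or T cell share in the values of the members was not tested.

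For NK1.1- ILTCk against PD1+ Tconv, 6 members were lower and 0 higher at an unadjusted p under 0.05, where 5.91% of all genes were lower and 5.96% higher. The libraries did not overlap in 12 members that were lower and 0 that were higher, where 22.7% and 23.1% of all genes were. The median was -0.32, beside -0.043 over all genes. DESeq2 called 0 members in either direction, where it called 1.57% of all genes lower and 2.10% higher. With the replicate block edgeR called 0 members, where it called 0.735% of all genes lower and 0.912% higher. The 4 with the smallest p overlap the list above: Parp14 (34.9 and 63.9 CPM; -1.53 ± 0.41), Gbp7 (34.5 and 71.6 CPM; -1.53 ± 0.45), Sp100 (98.9 and 124 CPM; -1.39 ± 0.45) and Rnf213, a large ubiquitin ligase (85.3 and 120.5 CPM against 226.5 and 226.4; -1.14 ± 0.39). Their edgeR adjusted p-values lay between 0.361 and 0.369. The differences of Isg15 (-0.23 ± 1.04), Irf7 (0.04 ± 0.75), Ifit1 (-0.15 ± 0.75), Ifit3 (0.0012 ± 0.88), Bst2 (-0.23 ± 0.88), Ifitm3 (0.64 ± 1.36), Gbp2 (-0.11 ± 0.49) and Lgals3bp (0.05 ± 0.53) were smaller than or near to their errors. The direction of the median turned, to 0.20 and 0.11, without replicate 1 of the NK1.1- group or replicate 2 of PD1+ Tconv.

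For NK1.1+ against NK1.1- ILTCk, 3 members were lower (Gbp7, Ifit1 and Ifih1) and 0 higher at an unadjusted p under 0.05, where 1.75% of all genes were lower and 2.18% higher. The libraries did not overlap in 6 members that were lower and 1, again Lgals3bp, that was higher, where 18.9% and 18.6% of all genes were. DESeq2 called 0 members, where it called 0.134% of all genes lower and 0.194% higher, and with the replicate block edgeR called 0 members and 0% of all genes. The median was 0.15, beside 0.0079 over all genes, and it turned to -0.37 and -0.73 without NK1.1- ILTCk replicate 1 or NK1.1+ ILTCk replicate 2. Ifit1 had 12.3 and 24.6 CPM in the NK1.1+ group and 32.8 and 156 in the NK1.1- group (-2.35 ± 0.79). Gbp7 differed by -1.52 ± 0.45, Ifih1 by -1.25 ± 0.53, from 11.1 and 12.8 CPM against 16.0 and 40.8, and Lgals3bp by 1.25 ± 0.54, from 694 and 1398 CPM against 365 and 516. Their edgeR adjusted p-values were all 1.000 to 3 decimals. Without NK1.1- ILTCk replicate 2 the differences shrank to -0.86 for Ifit1, -0.93 for Gbp7 and -0.45 for Ifih1, and without NK1.1+ ILTCk replicate 2 that of Lgals3bp was 0.65. Differences of the other named genes were 0.09 ± 1.04 for Isg15, 0.71 ± 0.75 for Irf7, -0.37 ± 0.88 for Ifit3, 0.49 ± 0.88 for Bst2, 0.67 ± 1.36 for Ifitm3 and -0.73 ± 0.50 for Gbp2.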

How the data were processed

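The 2 tables used hold whole-number read counts per gene, deposited by the authors and not normalized as far as the values show. The build was mm10 and the authors used DESeq, per the submitters' processing notes; for the aligner, counter and annotation nothing is given in the sources used here. The 4 single-cell libraries were not analysed here. Each table was fitted on all its genes with edgeR 4.0.16 (R 4.3.3): filterByExpr by group, TMM, glmQLFit with robust estimation, and glmQLFTest with Benjamini-Hochberg adjustment. The tumour contrasts came from 1 fit over 6 libraries. SE is the log2 fold change divided by the root of F. Ratios between libraries used CPM plus 0.5. DESeq2 1.42.0, limma-voom (limma 3.58.1), other scalings and filters, a replicate term and left-out libraries were alternatives. The log2 ratios of the tumour libraries numbered 2 to those numbered 1 correlated across 18091 genes at 0.387, 0.354 and 0.388 between groups, so values with the replicate number as a block are given where they change a call; this pairing comes from the data, not the labels. The fits were also run on simulated counts, drawn independently for each library with no effect of the replicate number. The outcome of that run is not given here. Promoters came from RefSeq (GRCm38.p6) and gene models from GENCODE M21.

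The members, the lists and the tests were chosen with earlier results of these data known. Named in the thymus were up to 3 called members per role by smallest p and Isg15, Irf7, Irf9, Stat2, Bst2 and Ifitm3; in the tumour Isg15, Irf7, Ifit1, Ifit3, Bst2, Ifitm3, Gbp2, Lgals3bp and the 4 smallest p per comparison; elsewhere up to 4 called genes per list. Other named members were chosen after their values were seen. 1 gene of the pathway lists is not reported here.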

Additional observations from a re-analysis of the deposited data

How the results depend on the processing

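In the thymus the median of the members stayed between -1.72 and -1.44 without each library. The count of members that fell was 17; it was 29 with no filter on low counts, where 3.97% of all genes fell, 28 with the replicate block, where 6.46% did, and 10 to 31 with a library left out. In the tumour the count of members called in the comparison of NK1.1+ ILTCk with PD1+ Tconv was 1 higher and 7 lower with no filter (2.13% and 1.77% of all genes), 2 higher (Oasl1 and Oasl2) and 5 lower with the replicate block (2.39% and 1.79%), and 7 lower with DESeq2; with no filter it was 1 lower for NK1.1- ILTCk against PD1+ Tconv (Oas3) and 1 lower for NK1.1+ against NK1.1- ILTCk (Ifit1). RLE scaling, limma-voom, a minimum of 50 counts in 2 libraries, the 4 compared libraries alone and each left-out library gave 0 called members in all 3. The labels do not say that a replicate number marks a shared mouse or day. In the thymus the log2 ratios of the library numbered 2 to the library numbered 1 had a correlation of 0.156 across genes.

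Some directions turned, also for values as large as 1.31 (Ifitm3). For NK1.1- ILTCk against PD1+ Tconv, Ifit3 was -0.0061 with RLE, -0.28 with limma-voom, -0.032 with the 50-count minimum and -0.31 with the replicate block, and Irf7 was -0.012 with limma-voom and -0.012 with the block; the cause was not tested. With 1 library left out, the lone library of a group is assumed to vary like the others. The thymic values then ran from -0.62 to 0.30 for Ifitm3 and -0.080 to 0.45 for Stat2. For NK1.1+ ILTCk against PD1+ Tconv they ran from -0.55 to 1.76 for Bst2, -1.68 to 0.33 for Ifit3, -0.55 to 4.70 for Ifitm3, -0.24 to 1.49 for Irf7, -1.64 to 1.18 for Isg15 and -1.16 to 0.29 for the median. For NK1.1- ILTCk against PD1+ Tconv they ran from -1.29 to 1.28 for Bst2, -0.90 to 0.42 for Gbp2, -1.63 to 0.59 for Ifit1, -1.44 to 0.73 for Ifit3, -0.43 to 4.04 for Ifitm3, -0.85 to 0.80 for Irf7, -1.86 to 1.102 for Isg15, -0.28 to 0.49 for Lgals3bp and -1.16 to 0.20 for the median. For NK1.1+ against NK1.1- ILTCk they ran from -0.34 to 1.58 for Bst2, -1.25 to 0.069 for Gbp2, -1.69 to 1.09 for Ifit3, -1.21 to 1.77 for Ifitm3, -0.29 to 1.61 for Irf7, -1.43 to 1.74 for Isg15 and -0.73 to 0.93 for the median. The count of 28 members higher in all 3 libraries numbered 2 was 29 with RLE and 19 with the library total. The lowest count of a member in a thymic library was 1 (Ifi44), 32 (Mx1), 34 (Oas2) and 43 (Ifitm3), so depth limits these values; how counting error compares with the spread between libraries was not tested.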

Other observations

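Interferon genes themselves were scarce in the tumour table. Of the 10 listed, Ifna1, Ifna2, Ifna4, Ifna5 and Ifnl3 had 0 counts in all 6 libraries, which allows up to 3 counts in the table's total, or 0.0215 CPM (counting error only). Ifnb1 had 24 counts in all, in 4 libraries, the highest of which, NK1.1+ ILTCk replicate 1, had 16. Ifnk had 13 counts in 3 libraries, and Ifne and Ifnl2 had 1 count each. Ifng alone passed the filter, with 17.3 and 25.4 CPM in the NK1.1- group beside the values of the other groups given above, so its libraries did not follow the number in 1 direction.

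Other listed interferon-induced genes outside the members with an unadjusted p under 0.01 for NK1.1+ ILTCk against PD1+ Tconv were the PYHIN genes Ifi203 (-3.13 ± 0.51 log2), Ifi213 (-1.69 ± 0.42) and Ifi209 (-2.46), and Ifit1bl1 (-2.84 ± 0.46). The average level of Ifi203 was 27.5 CPM in the NK1.1+ group and 241 in PD1+ Tconv. Among the interferon-γ-induced GTPases, Gbp2b was higher in the NK1.1+ group (5.09 log2) while Gbp6 (-2.70) and Gvin1 (-3.00) were lower, and the MHC class II regulator Ciita was higher (2.49). These genes were chosen after their values were seen, and their edgeR adjusted p-values lay between 0.0875 (Ifit1bl1) and 0.206 (Ciita). The 9 markers of dendritic cells and MHC class II summed to 14860 and 9306 CPM in the NK1.1+ group. In PD1+ Tconv they summed to 446 and 1043 CPM. The part of other cells in the values of these genes was not tested.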
